A study of Mus musculus with 25 samples.

Results

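Cadherins and protocadherins were described in 2 mouse pancreatic islet cell lines, αTC1 (alpha TC1 clone 6) and βTC6 (beta-TC-6), which are used as models of the glucagon-producing alpha cell and the insulin-producing beta cell. Members were every gene of the RNA-seq tables whose symbol was Cdh followed by a number or began with Pcdh, and every ATAC-seq peak whose nearest annotated gene had such a symbol. This gave 59 of 24439 genes and 588 of 65053 consensus peaks, the latter nearest to 65 genes. The rule used gene symbols and no measured value, although these families were picked for description with earlier results of these data known.

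The series held ATAC-seq libraries, which map open chromatin, from 5 replicates of each line and from 9 mixtures of counted cells that ran from 10% to 90% αTC1 in steps of 10%. RNA-seq was available for 3 replicates of each line. Both lines were untreated commercial cultures kept in differently supplemented media, so line and medium cannot be told apart, and each line stands for 1 isolate of its cell type. Nothing in the sources states that replicates were separate cultures, so p-values measure only the spread between these samples. RNA-seq libraries held 21954031 to 26033482 expected counts, and ATAC-seq libraries of the pure lines held 4397851 to 10374903 reads in consensus peaks.

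RNA of every alpha and beta cell marker examined, except Ttr, was higher in the line of its label. Gcg averaged 12900 ± 1280 FPKM (RNA fragments scaled by transcript length and library size; SD, n = 3) in αTC1 and 229 ± 50.4 in βTC6, and Ins2 averaged 0.34 ± 0.26 FPKM in αTC1 and 30100 ± 6150 in βTC6. The alpha marker Ttr did not differ beyond its spread, at 835 ± 154 FPKM in αTC1 and 1120 ± 526 in βTC6. The beta marker Nkx6-1 was also present in αTC1, at 13.8 ± 0.458 FPKM against 60.7 ± 5.34 in βTC6. The 4 markers of delta, PP and epsilon cells summed to 0.31 to 1.04 FPKM in αTC1 and to 238 to 349 FPKM in βTC6. Most of the βTC6 sum was Sst (256 ± 61.9 FPKM), and Ppy ranged from 3.7 to 50.81 FPKM. Hhex and Ghrl reached no more than 0.02 and 0.65 FPKM in βTC6, and both averaged lower there than in αTC1. The other marker lists (endothelial, fibroblast, exocrine and duct, immune, neuron and glia) summed to at most 6.48 FPKM in any library, and Col3a1, Lum and Sox10 stood at 0 in all of them. Some of these low sums differed between lines. Endothelial markers summed to 0.27 to 0.29 FPKM in αTC1 and to 4.53 to 6.48 in βTC6, mostly Esam. Fibroblast markers summed to 2.47 to 3.57 FPKM in αTC1 and to 0.38 to 0.56 in βTC6. Whether such RNA came from cells of other types was not tested, nor was the part of such cells in the values below. On chromosome 14 the median log2 fold change of βTC6 over αTC1 was 1.54 over 2830 peaks and 1.2 over 415 genes, whereas medians of all peaks and all genes tested were 0.00 and 0.01. Values for members on this chromosome (Pcdh8, Pcdh9, Pcdh17, Pcdh20 and Cdh24) are therefore also given relative to these medians.

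Cadherins are membrane proteins that hold neighbouring cells together when calcium is present. Classical cadherins are divided into type I and type II and bind like partners on the next cell, while their tails bind catenins that link them to actin. E-cadherin and N-cadherin are known to hold islet endocrine cells in aggregates. Protocadherins form the largest branch of the superfamily. The delta protocadherins are single genes, whereas alpha, beta and gamma protocadherins lie in 3 neighbouring clusters in which each variable exon or gene has its own promoter.

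Promoter sequences are shown for members whose promoter peak was called more open in βTC6, and for members called higher in αTC1 by RNA whose promoter peak did not differ in that direction, where RefSeq held a window with an unbroken stretch of at least 170 bases outside exons. The longest such stretches of Cdh7 and Pcdh7, also called more open in βTC6, were 87 and 101 bases and are not shown. They are RefSeq sequences that were each found once in mm9. The printed stretch is the 250 bases before the start site, shortened where they met an annotated exon, and it reads 5′ to 3′ along the gene. Capitals mark exact matches, on either strand, to 5 short motifs, the TATA box (TATAAA), the CCAAT box (CCAAT), the GC box (GGGCGG), an E-box (CAGGTG) and a homeodomain core (TAATTA). The first 4 were more open in βTC6, at Cdh8 (chr8:101940372-101940541, minus strand), Cdh6 (chr15:13103431-13103680, minus strand), Pcdh8 (chr14:80171120-80171369, minus strand) and Pcdh15 (chr10:73284365-73284614, plus strand). The others were those of Cdh18 (chr15:22965968-22966209, plus strand), Pcdh19 (chrX:130223533-130223782, minus strand) and Pcdh9 (chr14:94289899-94290148, minus strand), which are 3 of the 5 members called higher in αTC1 by RNA.
Cdh8: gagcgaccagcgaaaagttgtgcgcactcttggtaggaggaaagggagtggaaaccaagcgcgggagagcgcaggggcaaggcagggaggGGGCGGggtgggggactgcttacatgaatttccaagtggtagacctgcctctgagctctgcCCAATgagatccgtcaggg
Cdh6: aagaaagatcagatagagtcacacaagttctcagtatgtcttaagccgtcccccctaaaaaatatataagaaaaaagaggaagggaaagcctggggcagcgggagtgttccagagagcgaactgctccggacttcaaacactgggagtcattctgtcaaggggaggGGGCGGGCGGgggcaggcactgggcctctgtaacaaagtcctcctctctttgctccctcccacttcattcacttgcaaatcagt
Pcdh8: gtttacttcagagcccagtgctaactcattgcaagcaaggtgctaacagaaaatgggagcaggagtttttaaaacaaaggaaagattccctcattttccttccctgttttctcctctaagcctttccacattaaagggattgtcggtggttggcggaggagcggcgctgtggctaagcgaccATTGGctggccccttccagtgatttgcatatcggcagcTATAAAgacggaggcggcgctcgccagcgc
Pcdh15: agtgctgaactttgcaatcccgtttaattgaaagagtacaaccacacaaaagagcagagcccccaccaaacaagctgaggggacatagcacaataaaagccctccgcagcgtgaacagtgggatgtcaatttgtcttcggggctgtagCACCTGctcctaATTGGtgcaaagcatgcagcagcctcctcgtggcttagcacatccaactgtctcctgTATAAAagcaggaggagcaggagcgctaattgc
Cdh18: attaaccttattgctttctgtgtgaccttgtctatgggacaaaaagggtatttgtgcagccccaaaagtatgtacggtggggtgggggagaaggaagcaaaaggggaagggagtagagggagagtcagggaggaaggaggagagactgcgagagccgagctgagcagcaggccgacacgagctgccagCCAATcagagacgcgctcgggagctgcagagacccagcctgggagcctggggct
Pcdh19: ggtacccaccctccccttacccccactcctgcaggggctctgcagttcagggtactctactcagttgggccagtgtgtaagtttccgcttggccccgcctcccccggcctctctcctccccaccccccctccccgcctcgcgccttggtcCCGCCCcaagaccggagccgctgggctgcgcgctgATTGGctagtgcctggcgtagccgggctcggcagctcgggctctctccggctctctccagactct
Pcdh9: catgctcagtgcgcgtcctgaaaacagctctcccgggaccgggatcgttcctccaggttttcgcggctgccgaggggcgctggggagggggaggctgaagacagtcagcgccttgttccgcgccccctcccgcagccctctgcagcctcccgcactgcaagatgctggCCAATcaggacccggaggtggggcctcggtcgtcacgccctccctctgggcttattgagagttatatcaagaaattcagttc

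RefSeq promoters on its GRCm38.p6 build were matched for 22 member genes with 25 start sites, 19 of which overlapped a consensus peak nearest to a member. Motifs were counted over the full 250 bases, exon sequence included. The CCAAT box was found, on either strand, in 15 of these 25 windows, and in 33.8% of 32851 promoter windows of the same length. The GC box occurred in 9 of the 25 and in 32.7% of all windows, and the TATA box in 2 and 12.4%. The E-box, of the kind that Snail and Zeb repressors are known to bind, occurred in 3 and 17.2%, and the homeodomain core, which reads the same on both strands, in 1 and 4.84%. Matches of the GC box overlap each other in the Cdh6 window. Some windows belong to the same gene, namely 3 of Cdh7 and 2 of Pcdh9, and the 2 of Pcdh9 hold the same CCAAT match. The median share of G and C bases was 58.4% in the member windows and 52.4% in all windows.

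Among the 59 member genes, 30 reached an FPKM of 1 throughout the libraries of one line or the other and were tested. A gene was called when its false discovery rate (edgeR) was below 5% and its log2 fold change lay beyond 2 in either direction. By this rule 14 members were higher in βTC6 and 5 were higher in αTC1. Over all 12195 genes tested, 10.2% were called higher in βTC6 and 4.08% higher in αTC1. The median log2 fold change over the 30 members was 1.39. The filter itself contributes to these counts: 13 members passed only through βTC6, and all 13 of these were called higher in βTC6. A further 4 passed only through αTC1, of which 2 were called, and 13 passed in both lines, of which 1 was called higher in βTC6 and 3 higher in αTC1. With limma on log2(FPKM + 1), a scale that shrinks the folds of low genes, 10 of these calls fell short of the fold limit, namely Cdh6 (1.76), Cdh18 (-1.57), Pcdh9 (-1.55), Pcdh19 (-1.53), Pcdh20 (1.68), Pcdhb5 (0.82), Pcdhb6 (1.17), Pcdhb10 (1.32), Pcdhb11 (1.23) and Pcdhb21 (-1.37). In bulk libraries, fewer cells that express a gene and less RNA per cell cannot be told apart.

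Of the 5 type I cadherins, 2 were higher in βTC6, 1 was tested but not called, and 2 were below the filter. Cdh2, N-cadherin, had nearly the same RNA level in both lines. FPKM of Cdh2 was 42.84, 42.46 and 41.97 in αTC1 and 44.80, 43.58 and 37.85 in βTC6, and these ranges overlapped. Its log2 fold change was 0.03 ± 0.08 (SE, edgeR adjusted p = 0.717). Cdh1, E-cadherin, the adhesion molecule of most epithelia, was at 0.00, 0.03 and 0.00 FPKM in αTC1 and at 9.31, 6.86 and 4.66 FPKM in βTC6. With 2 counts in the αTC1 libraries together and 2390 in those of βTC6, the ratio of Cdh1 was 1160 (95% exact counting interval 321 to 9600; edgeR adjusted p = 3.64e-07). Cdh4, R-cadherin, a relative of N-cadherin first known from retina, was at 0.01, 0.00 and 0.00 FPKM in αTC1 and at 34.66, 28.86 and 27.26 FPKM in βTC6. Its counts summed to 1 and 14550, and Cdh4 had the smallest adjusted p of all members (edgeR adjusted p = 2.30e-09).

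All type I cadherins together amounted to 42.4 ± 0.448 FPKM in αTC1 and 79.4 ± 9.52 FPKM in βTC6 (SD, n = 3). Cdh2 made up at least 99.9% of this sum in every αTC1 library and 53.1% ± 2.42 in βTC6. Cdh3 (P-cadherin) and Cdh15 (M-cadherin, of muscle) were at no more than 0.14 FPKM in any library.

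The 13 type II cadherins gave 4 genes higher in βTC6 and 1 higher in αTC1 among 7 tested. Cdh8, best known from the nervous system, was at 0.02, 0.00 and 0.00 FPKM in αTC1 and at 22.43, 22.95 and 19.50 FPKM in βTC6, with 1 count against 5012 (edgeR adjusted p = 4.14e-09). Cdh7 had 0 counts in every αTC1 library and 248, 160 and 204 counts in βTC6, where FPKM was 3.20, 2.33 and 3.79. Against a floor of 3 counts per library, Cdh7 was at least 66.1-fold higher in βTC6 (edgeR adjusted p = 2.94e-06). Cdh6, K-cadherin of the kidney, was at 0.05, 0.02 and 0.02 FPKM in αTC1 and at 2.33, 2.63 and 2.49 FPKM in βTC6, and the ratio of its counts was 97.6 (95% exact counting interval 41.6 to 302; edgeR adjusted p = 3.47e-07). These genes were separated completely between lines, and counting intervals cover counting error only.

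Cdh22 was at 0.70, 0.74 and 1.47 FPKM in αTC1 and at 16.68, 10.14 and 15.26 FPKM in βTC6, a log2 fold change of 3.87 ± 0.29 (edgeR adjusted p = 3.02e-06). Cdh18 went the other way, with 6.19, 6.96 and 6.23 FPKM in αTC1 and 1.74, 1.39 and 1.39 FPKM in βTC6, and its log2 fold change was -2.1 ± 0.15 (edgeR adjusted p = 2.31e-06). Cdh24 lay just under the fold threshold at 1.91 ± 0.18, and passed it without αTC1 replicate 2 (2.01) or without βTC6 replicate 2 (2.02). It lies on chromosome 14, and relative to the chromosome's median its log2 fold change was 0.71. Cdh11, OB-cadherin of mesenchymal cells, did not differ beyond its spread (log2 fold change -0.07 ± 0.19, edgeR adjusted p = 0.767), with 3.84 to 4.6 FPKM in αTC1 and 2.91 to 5.17 FPKM in βTC6. Cdh5, VE-cadherin, which defines endothelium, was at no more than 0.01 FPKM in any library. Summed over the 13 genes, type II cadherins amounted to 14.4 ± 0.261 FPKM in αTC1 and 54.2 ± 5.51 FPKM in βTC6.

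Of the 5 atypical cadherins, 1 was higher in each line and 3 were below the filter. Cdh13, T-cadherin, which is anchored by a lipid and has no tail to bind catenins, was the leading cadherin of this group in αTC1. It was at 16.98, 16.68 and 24.71 FPKM in αTC1 and at 1.31, 2.22 and 2.30 FPKM in βTC6, with a log2 fold change of -3.30 ± 0.26 (edgeR adjusted p = 3.68e-06). Cdh23, which forms the tip links of hair cells together with Pcdh15, was at 0.00, 0.00 and 0.10 FPKM in αTC1 and at 10.81, 2.44 and 6.82 FPKM in βTC6. Its level varied more than that of other called members within βTC6, and βTC6 replicate 2 was the lowest. The ratio of Cdh23 counts was 775 (95% exact counting interval 265 to 3760; edgeR adjusted p = 1.08e-05).

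**Figure D1:**
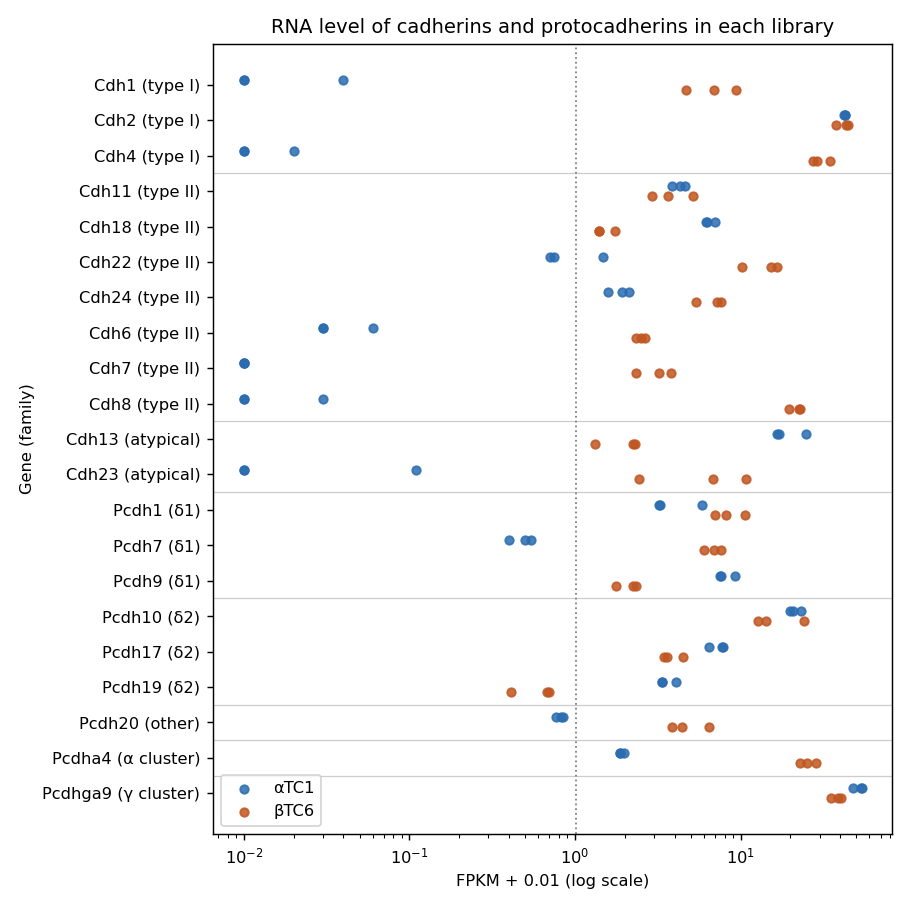
RNA level of the tested members outside the beta cluster, as FPKM plus 0.01 on a log axis, with 1 point for each of 3 αTC1 and 3 βTC6 libraries and the dotted line at an FPKM of 1. Cdh1, Cdh4, Cdh7 and Cdh8 lie between 0.00 and 0.03 FPKM in αTC1 and at 2.33 FPKM or more in βTC6, while all points of Cdh2 lie between 37.85 and 44.80 FPKM.

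Among the delta-1 protocadherins, which can bind a phosphatase through their tails, Pcdh7 was higher in βTC6 and Pcdh9 was higher in αTC1. Pcdh7 was at 0.53, 0.49 and 0.39 FPKM in αTC1 and at 6.86, 5.98 and 7.58 FPKM in βTC6, and its log2 fold change was 3.94 ± 0.15 (edgeR adjusted p = 4.97e-08). Pcdh9 was at 7.63, 7.48 and 9.20 FPKM in αTC1 and at 2.24, 1.77 and 2.34 FPKM in βTC6, with a log2 fold change of -2.0 ± 0.14 (edgeR adjusted p = 1.51e-06). The groups of Pcdh9 did not overlap, but its fold sat at the threshold: without αTC1 replicate 3 it was -1.90 and without βTC6 replicate 2 it was -1.93, and neither passed. Relative to the median of chromosome 14, Pcdh9 stood at -3.20. Pcdh1 was at 3.21, 3.26 and 5.86 FPKM in αTC1 and at 10.58, 8.18 and 7.04 FPKM in βTC6, and was below the fold threshold (log2 fold change 0.86 ± 0.23). Pcdh11x was not tested, with 0.55 to 1.42 FPKM over both lines.

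Of the 5 delta-2 protocadherins, whose tails can recruit regulators of actin, 3 were tested and 1 was called, as higher in αTC1. Pcdh19, a gene of the X chromosome known for a form of epilepsy, was at 3.32, 4.06 and 3.36 FPKM in αTC1 and at 0.67, 0.69 and 0.40 FPKM in βTC6 (a log2 difference of -2.24 ± 0.17, edgeR adjusted p = 3.44e-06). Pcdh17 was at 7.79, 7.73 and 6.42 FPKM in αTC1 and at 4.5, 3.42 and 3.59 FPKM in βTC6. Its log2 fold change was -0.87 ± 0.12, and relative to the median of chromosome 14 it was -2.07, past the threshold. Pcdh10 was among the more abundant members, at 19.99, 20.72 and 23.07 FPKM in αTC1 and at 14.31, 24.26 and 12.79 FPKM in βTC6, and the lines overlapped (log2 fold change -0.20 ± 0.22, edgeR adjusted p = 0.435).

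Pcdh20 was at 0.81, 0.76 and 0.84 FPKM in αTC1 and at 3.84, 6.44 and 4.39 FPKM in βTC6, with a log2 fold change of 2.67 ± 0.22 (edgeR adjusted p = 4.42e-06). Relative to the median of chromosome 14 it was 1.47, which did not pass the fold threshold. Pcdh15, the other tip-link gene, stayed below the filter at 0.01, 0.02 and 0.01 FPKM in αTC1 and 0.61, 0.32 and 1.15 FPKM in βTC6. Pcdh8 had 0 counts in every αTC1 library and 74, 53 and 69 counts in βTC6, where FPKM was 0.71, 0.50 and 0.69. These 2 genes were named after their values were seen, and their levels in βTC6 did not reach an FPKM of 1 in all replicates. In all, 29 members were not tested, with FPKM of at most 1.43, and 12 of them belonged to the beta cluster. Fitted without the filter, 10 of the 29 were called higher in βTC6 and 1, Cdh26, higher in αTC1, beside 17.5% and 6.82% of all 7375 genes below the filter in that fit.

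The clustered protocadherins were read with a limit of the annotation. The entry named Pcdha4 (chr18:37089939-37347311) spans the alpha cluster and the entry named Pcdhga9 (chr18:37833989-38001527) spans the gamma cluster, so each gives a sum over alternative first exons and not 1 isoform. The beta genes are separate but similar, and reads that fit several copies were divided among them by the authors' estimation, which could move values between neighbours.

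The alpha entry was at 1.87, 1.87 and 1.96 FPKM in αTC1 and at 28.38, 22.70 and 25.13 FPKM in βTC6, and its log2 fold change was 3.50 ± 0.09 (edgeR adjusted p = 6.54e-09). The gamma entry was the most abundant member in αTC1, at 53.38, 53.76 and 47.70 FPKM, and was at 40.39, 38.83 and 35.16 FPKM in βTC6. The difference of the gamma entry was smaller than the threshold (log2 fold change -0.39 ± 0.09), although the lines did not overlap. The separate entry Pcdha3 had 1 count in each αTC1 library and 82, 37 and 86 counts in βTC6.

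The beta cluster moved in both directions. Of its 21 genes, 9 were tested, 4 were higher in βTC6 and 1 was higher in αTC1, and the sum over the cluster was 23.6 ± 0.341 FPKM in αTC1 and 21.9 ± 2.26 FPKM in βTC6 (SD, n = 3). Pcdhb10 was at 0.37, 0.43 and 0.28 FPKM in αTC1 and at 2.80, 2.12 and 2.30 FPKM in βTC6 (a log2 difference of 2.80 ± 0.23, edgeR adjusted p = 4.70e-06). Pcdhb11 was at 0.60, 0.70 and 0.73 FPKM in αTC1 and at 3.48, 2.77 and 2.59 FPKM in βTC6 (2.17 ± 0.19, edgeR adjusted p = 6.50e-06). In contrast, Pcdhb21 was at 2.57, 2.65 and 2.76 FPKM in αTC1 and at 0.41, 0.39 and 0.44 FPKM in βTC6 (-2.63 ± 0.16, edgeR adjusted p = 6.91e-07). The other genes called were Pcdhb5 (2.1 ± 0.22) and Pcdhb6 (2.05 ± 0.20), named to complete the count. Pcdhb5 fell under the fold threshold without αTC1 replicate 1 (1.98), and Pcdhb6 did so without αTC1 replicate 2 (1.93) or βTC6 replicate 1. The 4 tested genes that were not called had log2 fold changes of -1.62 (Pcdhb14), -1.12 (Pcdhb16), -1.41 (Pcdhb22) and 0.47 (Pcdhb17).

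Accessibility was then compared between 5 libraries of each line. Values are normalized read counts, in which the authors had adjusted the reads of a peak for library size, and were tested with limma on log2 of the value plus 1, with the same limits on false discovery rate and fold change. Of the 588 member peaks, 130 were called more open in βTC6 and 19 more open in αTC1, that is, 22.1% and 3.23%. Among all peaks, 12.9% were called more open in βTC6 and 5.38% more open in αTC1. On chromosome 14, 38.5% of the 130 member peaks and 35.5% of all peaks were called more open in βTC6. Elsewhere, the shares were 17.5% of 458 member peaks and 11.9% of all peaks. Member peaks lay far from start sites, although several of those named below lie in introns. The median distance to the nearest start site was 217 kb, against 28.5 kb for all peaks, and 162 of the 588 lay beyond 500 kb. The nearest gene is thus a label of position, and which gene a distal peak acts on was not tested. Within 2 kb of a start site, 13 of 70 member peaks (18.6%) were called more open in βTC6 and 1 (1.43%) more open in αTC1, beside 5.51% and 1.41% of all such peaks.

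The promoter peak of Cdh8 (chr8:101938261-101940807), which also covers the start of the divergent gene A330008L17Rik, had normalized read counts of 6.72, 10.7, 12.3, 10.6 and 13.1 in αTC1 and of 126, 138, 129, 133 and 139 in βTC6. Its log2 fold change was 3.55 ± 0.13 (limma adjusted p = 1.72e-14). At Cdh4 (chr2:179176851-179178472) the counts were 2.52, 3.09, 1.65, 2.18 and 0.433 in αTC1 and 46.6, 43.9, 43.5, 37.1 and 38.7 in βTC6 (3.93 ± 0.22, limma adjusted p = 4.38e-12). Both promoters, whose genes are transcribed in βTC6, were thus separated without overlap.

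The promoter of Cdh1 (chr8:109126925-109127730) had 1.54, 1.83, 1.65, 0.819 and 0.289 normalized reads in αTC1 and 11.9, 10.1, 13.1, 9.84 and 9.58 in βTC6 (2.47 ± 0.24, limma adjusted p = 1.09e-08). A second Cdh1 peak in an intron (chr8:109166091-109166413) averaged 0.605 ± 0.471 and 11.6 ± 1.09 (SD, n = 5), and these were the only peaks assigned to Cdh1. For Cdh7 the promoter peak (chr1:111878998-111880333) averaged 3.99 ± 1.15 in αTC1 and 39.8 ± 8.43 in βTC6, and an intergenic peak upstream (chr1:111868595-111869466) averaged 2.81 ± 0.607 and 34.5 ± 7.68. For Cdh6, whose window is printed above, the promoter peak (chr15:13102538-13103822) held 11.6, 10.8, 10.4, 13.8 and 8.96 normalized reads in αTC1 and 53.5, 47.6, 42.6, 59.6 and 72.3 in βTC6 (2.2 ± 0.14, limma adjusted p = 2.20e-11). Pcdh7 had a promoter peak (chr5:58109272-58109621) at 1.94 ± 0.481 and 17.0 ± 1.93, and an intronic peak (chr5:58447791-58448918) at 6.62 ± 0.974 and 55.3 ± 6.97, both called more open in βTC6.

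Promoter accessibility did not follow RNA in every member. For the 9 called genes outside the clusters with more RNA in βTC6, 6 promoter peaks were called more open in βTC6, and the log2 fold changes ran from -0.17 to 3.93. The value of -0.17 was that of Cdh23 (chr10:60159707-60159986; 3.93 ± 1.23 in αTC1 and 3.43 ± 1.24 in βTC6). A Cdh23 peak at another annotated start within the gene (chr10:60057966-60058391) averaged 0.855 ± 0.316 and 11.3 ± 1.14 and was called more open in βTC6 (2.74 ± 0.20, limma adjusted p = 2.96e-10). At Cdh22 the promoter peak (chr2:165059813-165060761) differed little (0.53 ± 0.12), and a peak inside the gene near the start (chr2:165058928-165059577) sat at the fold threshold (2.0 ± 0.25) and passed it without either αTC1 replicate 1 or 2 or βTC6 replicate 4 or 5 (2.01 to 2.21).

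The 4 called genes outside the clusters with more RNA in αTC1 had promoter peaks with log2 fold changes of -0.20 to 1.55, all within the threshold. The Cdh18 promoter (chr15:22965219-22966665) held 72.8, 79.1, 83.7, 76.3 and 79.4 normalized reads in αTC1 and 65.9, 72.2, 64.5, 53.6 and 88.6 in βTC6, which overlapped (-0.20 ± 0.11, limma adjusted p = 0.0948), and with quantile normalization the sign of this difference turned (0.27). The Pcdh19 promoter (chrX:130222836-130224748) averaged 57.5 ± 6.04 and 52.0 ± 13.2, and that of Cdh13 (chr8:120807418-120807962) 7.0 ± 1.90 and 6.13 ± 2.36. The Pcdh9 promoter (chr14:94288704-94290906) was higher in βTC6, against the direction of its RNA, with 63.0, 61.5, 58.0, 64.1 and 51.0 normalized reads in αTC1 and 169, 163, 157, 167 and 233 in βTC6. Its log2 fold change was 1.55 ± 0.10, and 0.02 relative to the median of chromosome 14.

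**Figure D2:**
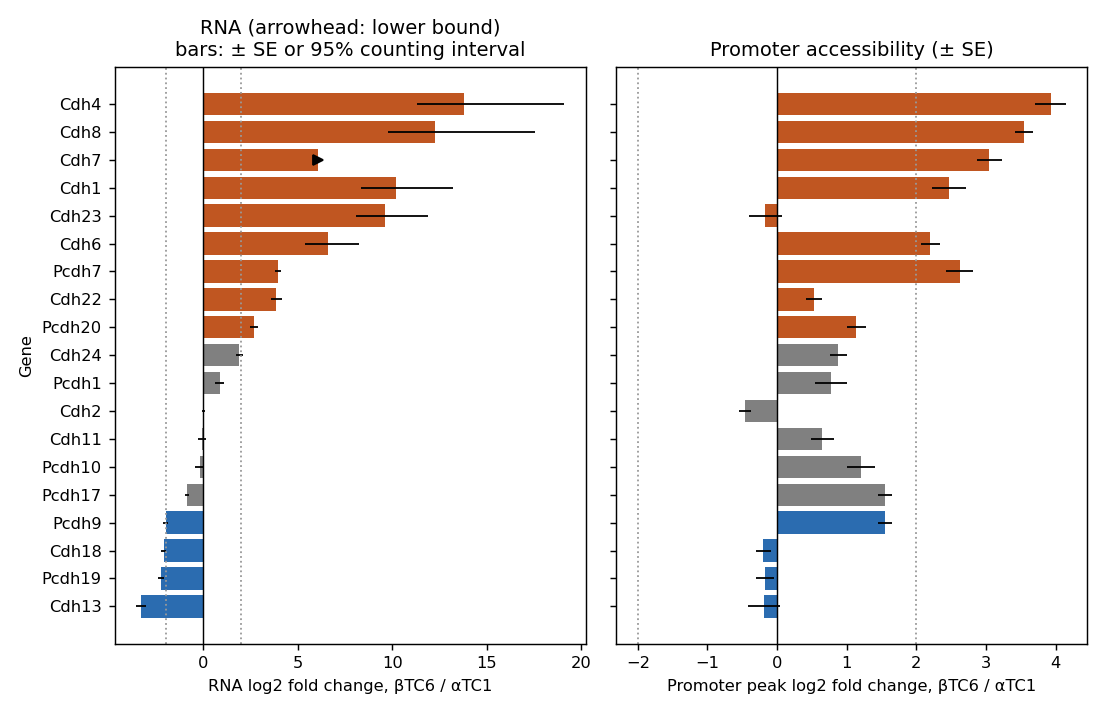
RNA and promoter-peak log2 fold changes (βTC6 over αTC1) of the 19 tested members outside the clusters, ordered by the fitted RNA change. Orange and blue bars are genes called higher in βTC6 and αTC1 by RNA, grey bars were not called, dotted lines mark the fold threshold of 2, RNA error bars are the SE or, for genes with at most 3 counts in every αTC1 library, the 95% counting interval around the ratio of counts, and the arrowhead of Cdh7 marks a lower bound. Cdh23 has a promoter value of -0.17 beside a large RNA difference, and Pcdh9 has bars of opposite sign.

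Peaks further away were described gene by gene, and the counts below stand beside the 12.9% and 5.38% of all peaks called more open in βTC6 and in αTC1. Cdh18 had 31 peaks, of which 4 were called, all as more open in αTC1 (3 relative to its chromosome's median), and the leading one in an intron (chr15:23088134-23089670) held 55.2, 50.0, 50.8, 49.4 and 44.2 normalized reads in αTC1 and 8.66, 11.1, 8.92, 8.56 and 7.32 in βTC6 (-2.37 ± 0.12, limma adjusted p = 7.31e-13). Cdh20 had the most αTC1 peaks, 7 of 24, with a median log2 fold change of -1.43 on a chromosome with a median of -0.61, and relative to that median 3 were called more open in αTC1 and 2 more open in βTC6. Its leading intronic peak (chr1:106853341-106854084) averaged 49.5 ± 4.28 and 6.81 ± 1.13, but Cdh20 RNA was at no more than 0.12 FPKM in any library. Cdh13, which had more RNA in αTC1, had a median log2 fold change of -0.26 over 24 peaks, of which 11 lay above 0 and 13 below. Of these, 4 were called, all as more open in βTC6, beside 13% of all peaks on chromosome 8, led by an intronic peak (chr8:121225154-121225836) at 0.601 ± 0.202 and 19.8 ± 6.97. Pcdh19 had 2 of 14 peaks called more open in βTC6 (1 relative to its chromosome's median), beside 18.8% of all peaks on the X chromosome, and at the leading one, 1754609 bases from its start (chrX:128468769-128469077), every αTC1 library held 1 read, the lowest value of the table, and βTC6 libraries held 28 to 60 reads.

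Cdh8 had 45 peaks, with 14 called more open in βTC6, 1 more open in αTC1 and a median log2 fold change of 1.47. Pcdh15, which stayed below the RNA filter, had 8 of 23 peaks called more open in βTC6, among them its promoter (chr10:73284173-73285150), which averaged 8.06 in αTC1 and 38.8 in βTC6 (2.16 ± 0.17, limma adjusted p = 6.19e-10). Cdh26, at no more than 0.11 FPKM in any library, had 5 of 10 peaks called, all as more open in βTC6. Cdh4 and Pcdh7 had 4 of 10 and 5 of 13 peaks called more open in βTC6, while the 6 of 37 of Cdh6 lay near the 12.9% of all peaks. Cdh2, whose RNA overlapped between lines, had 2 of 20 peaks called more open in βTC6, also near that share, and its promoter peak (chr18:16966002-16968398) was 127 ± 11.2 in αTC1 and 92 ± 3.05 in βTC6 (-0.46 ± 0.08, limma adjusted p = 3.81e-05).

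On chromosome 14 Pcdh9 had the most peaks of any member, 74, of which 26 were called more open in βTC6. Their median log2 fold change of 1.65 lay 0.12 above the chromosome's median, and relative to it 3 peaks were called more open in βTC6 and 2 more open in αTC1. The leading intronic Pcdh9 peak (chr14:93632584-93634081) held 2.94, 1.26, 3.61, 1.64 and 0.433 normalized reads in αTC1 and 82.2, 95.6, 73.4, 88.0 and 104 in βTC6, a log2 fold change of 5.02 ± 0.23 (limma adjusted p = 2.85e-13) and of 3.48 relative to the chromosome. Pcdh17 went from 13 to 4 calls of 27 peaks and Pcdh20 from 9 to 1 of 25 when set against this median. Pcdh8 differed more: its promoter peak (chr14:80170576-80171478) held 0.70, 1.55, 0.601, 1.23 and 0.289 normalized reads in αTC1 and 48.1, 50.5, 44.1, 56.4 and 62.4 in βTC6 (4.86 ± 0.19, limma adjusted p = 4.49e-14; 3.33 relative to the chromosome), the largest log2 fold change of a member promoter peak.

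**Figure D3:**
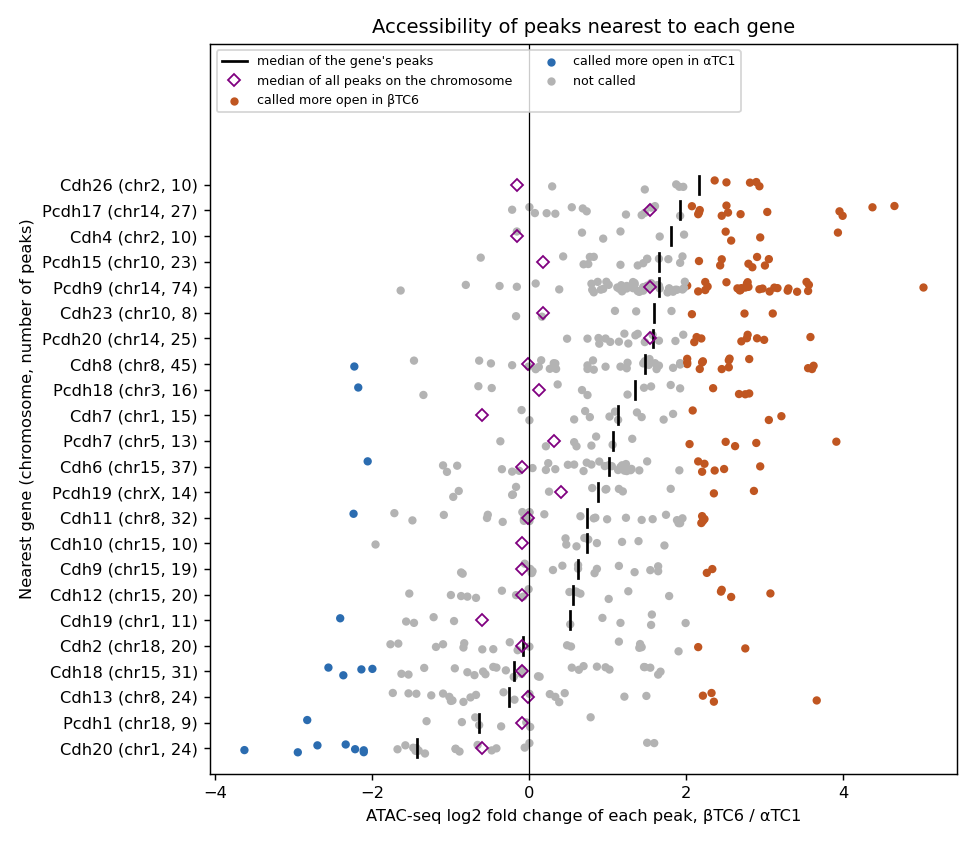
Log2 fold change of every peak (βTC6 over αTC1), 1 point for each peak, for nearest genes with at least 8 peaks, with black bars at each gene's median and diamonds at the median of its chromosome. For Pcdh9 and Pcdh20 the bars, at 1.65 and 1.57, lie close to the diamond at 1.54, and the median of Cdh20 lies at -1.43.

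Promoters of the clusters had signal differences of both signs. Of 20 beta-cluster peaks within 2 kb of a start, 18 had log2 fold changes below 0, beside 9789 of all 14582 such peaks. Called more open in βTC6 was 1 (5%, beside 5.51% of all such peaks), that of Pcdhb1 (chr18:37424138-37425078), the first gene of the cluster. It held 3.22, 1.83, 2.1, 0.955 and 1.73 normalized reads in αTC1 and 22, 17.4, 16.4, 19.1 and 26.3 in βTC6 (2.86 ± 0.21, limma adjusted p = 2.64e-10). Pcdhb1 RNA was at 0 counts in all αTC1 libraries and at 45, 27 and 19 counts in βTC6. At the genes called higher in βTC6 by RNA, promoter peaks were lower in βTC6, against the direction of the RNA. Their log2 fold changes were -0.66 (Pcdhb5), -0.58 (Pcdhb6), -0.55 (Pcdhb10) and -0.36 (Pcdhb11), with limma adjusted p of 0.001 to 0.0412. Pcdhb21, called higher in αTC1, was at -1.95 ± 0.23 with 10.6 ± 2.31 and 2.00 ± 0.62 normalized reads. Across the 18 genes with a promoter peak, the RNA fold change fitted without the filter and the peak fold change had a Spearman correlation of 0.72, a description across neighbouring, similar genes that share libraries and are not independent. The correlation is one of ranks, and signs mostly disagreed where RNA was higher in βTC6. The 12 genes with RNA values above 0 had peak values of -1.41 to 2.86, above 0 only at Pcdhb1 and Pcdhb2 (0.04). The 6 with RNA values below 0 had peak values of -1.95 to -0.20. Pcdhb2 and Pcdhb3 had at most 18 counts in any library.

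In the alpha cluster the promoter peak nearest to Pcdha2 (chr18:37098350-37099615) averaged 2.27 ± 0.648 in αTC1 and 17.1 ± 3.57 in βTC6 (2.47 ± 0.20, limma adjusted p = 1.19e-09). In the gamma cluster the leading peak, at the start of Pcdhgc4 (chr18:37973870-37975546), averaged 74.6 ± 4.48 and 36.5 ± 2.39 (-1.01 ± 0.08, limma adjusted p = 1.42e-09), and the peak at Pcdhgb8 (chr18:37920985-37921564), named after its value was seen, held 12.6, 11.5, 13.7, 15.4 and 6.79 normalized reads in αTC1 and 0.994, 2.46, 1.35, 1.43 and 2.25 in βTC6 (-2.26 ± 0.24, limma adjusted p = 4.10e-08). The alpha cluster, with 10 peaks, and the gamma cluster, with 7, each had 1 peak called more open in βTC6 and 1 called more open in αTC1.

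**Figure D4:**
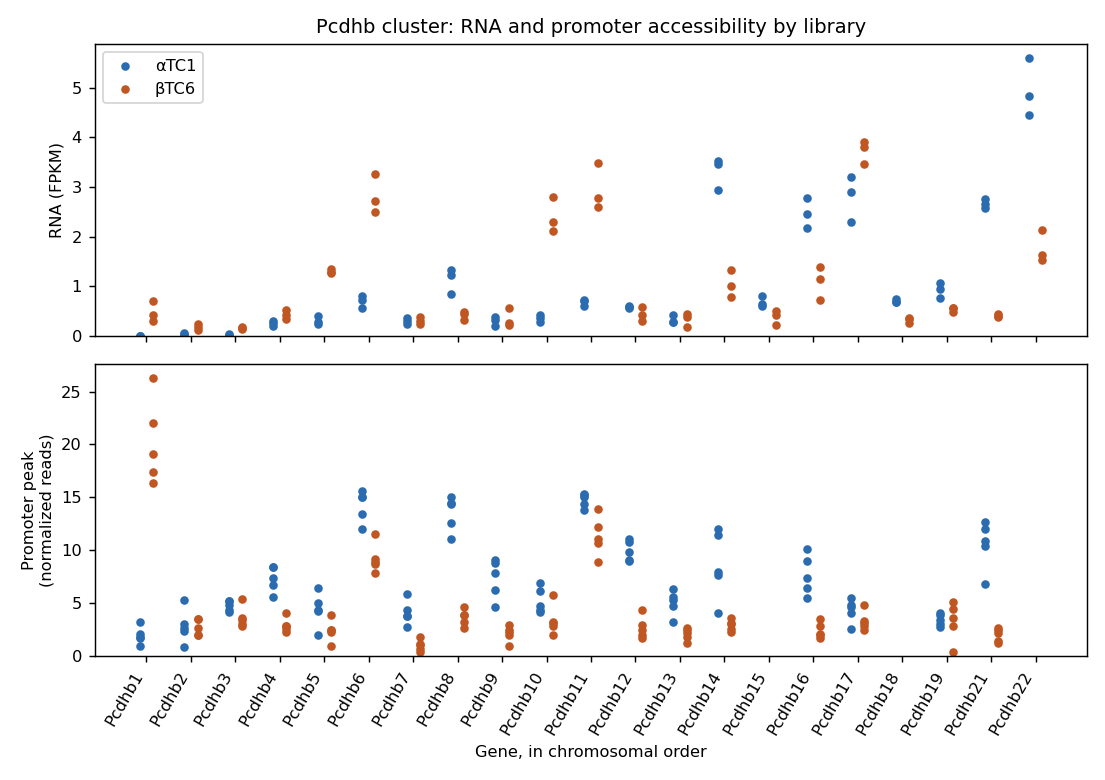
RNA (FPKM, 3 libraries of each line) and promoter-peak accessibility (normalized reads, 5 libraries of each line) of the 21 beta-cluster genes in chromosomal order. Genes without points in the lower panel had no peak within 2 kb, and Pcdhb1 is the gene whose βTC6 promoter values, 16.4 to 26.3, lie far above those of αTC1.

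The mixtures show how peak signal changed with the share of a line in a sample. Of the named peaks, the 8 with the largest moderated t in the pure lines, 1 per gene, were followed across the 9 mixtures, which had taken no part in choosing them. Because the mixtures are blends of the same lines, a trend with composition follows largely from this choice. The p-values below therefore describe the trend and are not separate support for it. At the Cdh8 promoter, normalized reads were 133 at 10% αTC1, 66.2 at 50% and 17.7 at 90%, and each mixture was lower than the one before (Pearson r = -0.982, exact permutation p = 5.51e-06, adjusted p = 8.82e-06; Spearman rho = -1, exact permutation p = 5.51e-06). The intronic Cdh20 peak, more open in αTC1, went from 15.6 through 28.9 to 46.5 (r = 0.976, rho = 0.983), and the Cdh18 intronic peak from 11.2 through 30.4 to 43.3 (r = 0.981, rho = 0.983). For the leading peaks of Pcdh17, Pcdh9, Pcdh15, Cdh7 and Pcdh7, r was -0.992, -0.988, -0.985, -0.968 and -0.957. The Pcdh17 peak (chr14:82642904-82643841) lies about 2200 kb from that gene's start. All 8 adjusted p-values were at most 3.31e-05 for r and 0.000165 for rho (exact two-sided permutation tests, Benjamini-Hochberg over the 8 peaks). Without the mixtures at 10% and 90%, r ran from -0.991 to -0.941 for the 6 peaks more open in βTC6 and was 0.971 and 0.967 for those of Cdh20 and Cdh18. No mixture was replicated, so the spread at a given composition is unknown.

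Averaged over the 130 member peaks called more open in βTC6, normalized reads were 20.4 in the mixture with 10% αTC1, 11.5 at 50% and 3.40 at 90%, beside 20.0 ± 1.93 in pure βTC6 and 1.99 ± 0.0533 in pure αTC1. Over the 19 called more open in αTC1 they were 4.36, 9.98 and 17.8, beside 2.26 ± 0.238 and 16.3 ± 0.842.

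**Figure D5:**
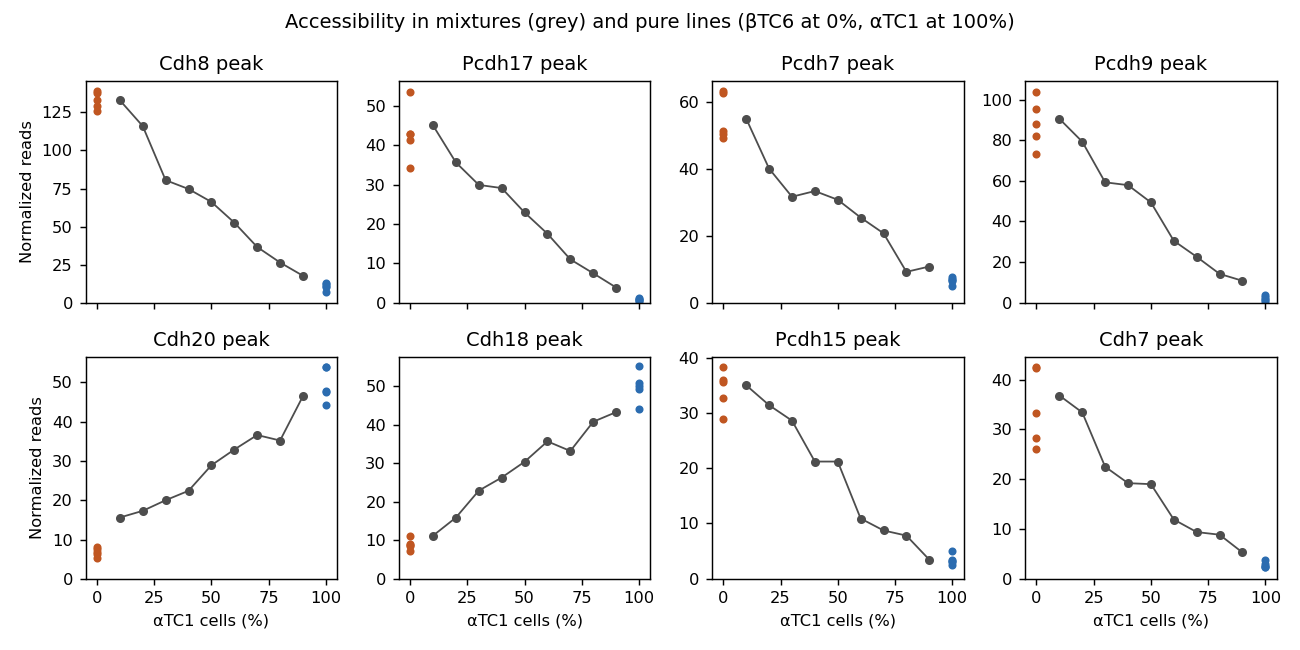
Normalized reads of 8 member peaks in 9 mixtures (grey, joined by lines) against the percentage of αTC1 cells, with the 5 pure βTC6 libraries (orange) at 0% and the 5 pure αTC1 libraries (blue) at 100%. The Cdh18 and Cdh20 peaks rise with the αTC1 share and the others fall.

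Genes that act with cadherins were counted from lists of their roles. The filter bears on these counts as well, since 12 of the 13 list genes called higher in βTC6 passed it through βTC6 alone. The counts stand beside 10.2% of all genes tested that were called higher in βTC6 and 4.08% higher in αTC1. Of 10 tested catenins and armadillo partners, 1 was called, a share like that of all genes: Ctnna1, αE-catenin, which ties the cadherin complex to actin, was at 4.94 ± 0.214 FPKM in αTC1 and 36.6 ± 0.956 in βTC6 (a log2 difference of 2.95 ± 0.08, edgeR adjusted p = 5.54e-09). The desmosomal list held 12 genes, of which 9 were below the filter and 3 passed it through βTC6 alone and were higher there, namely Dsc2 (0 counts in αTC1, at least 52.8-fold higher), Dsg2 (4.07 ± 0.34) and Evpl (3.32 ± 0.20), which are a desmosomal pair and a plaque protein. Of 11 other superfamily genes tested, 5 were higher in βTC6 and 1 in αTC1, led by Cdhr1, a photoreceptor cadherin, at 0.0633 ± 0.0153 FPKM in αTC1 and 108 ± 23.4 FPKM in βTC6, and by Cdhr5 and Ret, a receptor kinase with cadherin-like repeats, whose count ratios were 701 (95% exact counting interval 240 to 3400) and 443 (215 to 1100). The 8 sheddase and gamma-secretase genes, which cut cadherins at the membrane, and the 12 tested regulators of clustered protocadherins gave 0 calls under edgeR, DESeq2 and limma, although 6 of each list had an unadjusted p under 0.05 in edgeR, and the same number a false discovery rate below 5%, with log2 fold changes inside the limit of 2.

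Of 13 tested nectins and junction scaffolds, 3 were called, near the shares of all genes: Pvrl1 (3.67 ± 0.14) and Magi2 (2.28 ± 0.17) were higher in βTC6 and Pvr (-2.25 ± 0.18) was higher in αTC1. Of 9 tested entries for regulators of E-cadherin, Ovol2 (0 counts in αTC1, at least 80.3-fold higher), a repressor of mesenchymal genes, and Esrp1 (0.0567 ± 0.0306 FPKM in αTC1 and 6.53 ± 1.60 in βTC6), an epithelial splicing factor, were higher in βTC6, and Tcf4, an E-box binding factor, was higher in αTC1 (88.8 ± 7.5 FPKM against 15.1 ± 0.926; -2.32 ± 0.08, edgeR adjusted p = 3.02e-08). The 6 other tested entries were not called, with log2 fold changes of -1.46 (Snai2), -1.38 (Zeb2), -1.03 and -1.38 (the 2 Zeb1 entries), -0.98 (Tcf3) and 0.08 (Grhl1). The list's other 8 entries, Snai1 and Twist1 among them, were below the filter.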

How the data were processed

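ATAC-seq values were deposited as TMM-normalized read counts per consensus peak, a signal that the authors derived from reads aligned to mm9 with BWA 0.7.9a, peaks called per sample with MACS2 2.1.0, consensus peaks present in at least 2 samples (DiffBind 2.2.5), and nearest genes assigned with HOMER 4.6. RNA-seq values were deposited as FPKM and expected counts, which the authors estimated with RSEM 1.2.12 on mm9 transcripts and did not pool over replicates. Whole reads were recovered from the normalized signal (100% of values within 0.01) and gave the depth.

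Expected counts were rounded and tested with edgeR 4.0.16 (quasi-likelihood, TMM) over 12195 genes, without the 92 spike-in entries, and log2(normalized read count + 1) with limma 3.58.1 over 65053 peaks (R 4.3.3). The study's own normalization with RUVSeq was replaced by TMM. The columns of the authors' peak classes were not used. Coordinates came from the peak table and GENCODE vM1, which lacked 67 gene identifiers. Where αTC1 libraries held no count, folds were set against a floor of 3 counts per library. Intervals were computed with scipy 1.17.1. Samples were grouped by their labels, and 1 value per library entered each test.

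Genes were named by rule: all tested members outside the clusters, up to 3 called members per cluster, and for accessibility the promoter peak and the peak of largest moderated t of each called gene, of each gene with at least 3 peaks called one way, and of each cluster. The member families, lists and alternatives were chosen with earlier results of these data known, and members within the families by symbol alone. Alternatives were another test, scaling, filter or pseudocount, centring on chromosome medians, replicate subsets and leaving out each library.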

Additional observations from a re-analysis of the deposited data

Results flagged for a closer look

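A single library stood apart from the 4 others of its line in 4 of the 68 groups of 5 values examined (34 named peaks in 2 lines), by a gap to its neighbour of 0.762 to 0.845 of the group's whole range, past Dixon's limit for 5 values. Chance alone flags about 1 group in 20. In 3 of them the library was βTC6 replicate 5, the deepest, with 10374903 reads in peaks. It held 233 normalized reads at the Pcdh9 promoter (157 to 169 in the others), 54.6 at the Cdh7 promoter (34.3 to 38.6), and 52.1 at a Cdh6 peak at chr15:13226418-13227557 (29.9 to 33.4). In the other, αTC1 replicate 5 held 6.07 normalized reads at the Cdh23 promoter peak, against 2.94 to 3.68. Whether depth has a part in these values was not tested.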

How the results depend on the processing

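Of member genes, 14 higher in βTC6 and 5 higher in αTC1 became 8 and 1 with limma on log2(FPKM + 1), and 23 and 6 with no FPKM filter. Of member peaks, 130 and 19 became 209 and 34 with edgeR on recovered reads, and 30 and 2 with a pseudocount of 5, which shrinks fold changes of low peaks. Leaving out 1 library gave 13 to 16 and 4 to 5 genes, 129 to 137 and 17 to 21 peaks, and 8 of 8 mixture peaks each time. For the mixture peaks, their choice by the pure lines made this outcome likely. Centring on chromosome medians gave 13 and 6 genes and 100 and 14 peaks. Quantile normalization gave 94 and 26 peaks. Named genes and peaks that were called kept their direction under the alternatives run, but values that were not called did not all do so. Cdh2 RNA (0.03) was -0.02 with library size only, with limma on log2(FPKM + 1), with no FPKM filter and without βTC6 replicate 2, and -0.01 without βTC6 replicate 1, with a range of -0.02 to 0.11 when any 1 library was left out. Cdh11 RNA (-0.07) ranged from -0.32 to 0.09 in the same way and was positive without βTC6 replicate 2, and Pcdh10 RNA (-0.20) was 0.02 when centred. Promoter peaks of Cdh18 (-0.20) and Pcdh19 (-0.17) were 0.27 and 0.24 with quantile normalization, that of Pcdh19 was 0.1 with replicates 4 and 5, and that of Pcdh20 (1.14) was -0.39 when centred. Among all 30 tested members, 18 values of single genes under single settings lost their call and 3 gained one. Among named peaks 15 values lost their call and 9 gained one. The Cdh23 promoter peak and the distal Pcdh19 peak have no value under a filter on a mean of 5 normalized reads. The cause of these changes was not tested where the setting does not show it. Fewer than 3 counts in αTC1 limit the folds of the lowest members.

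Replicate numbers are shared between lines but did not pair the libraries. Deviations of same-numbered libraries correlated at -0.047 to 0.026 in RNA-seq and at -0.002 to 0.069 in ATAC-seq. With the replicate block, 14 and 5 genes and 130 and 19 peaks were called, as without it.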
